A study of Mus musculus with 9 samples.

Results

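The genes described here are 10 genes of heme breakdown and iron handling, taken by name from the 54532 genes listed for each library: Hmox1, Hmox2, Blvra, Blvrb, Fth1, Ftl1, Tfrc, Slc40a1, Ireb2 and Aco1. All 10 were listed, and 9 of them had a level high enough to be tested. B.END3 is an immortalised endothelial line from mouse brain, labelled as brain microvessel endothelial cells of strain C57BL/6, and its RNA was sequenced in 9 libraries, 3 in each of 3 groups. Control cells (Ctrl) are labelled untreated. Monolayers of the other 2 groups received porfimer sodium, a porphyrin photosensitizer, at 300 µg/mL for 90 min and then red light at 635 nm and 100 mW/cm2, with a light dose of 10 J/cm2 (Ep1) or 20 J/cm2 (Ep2). There was no library of cells given porfimer sodium alone or light alone, so the porphyrin and the light cannot be told apart in a comparison with Ctrl, whereas Ep1 and Ep2 differ by their labels in light dose only. The time between light and harvest is not given in the sources used here, and nothing in the labels says whether the 3 libraries of a group came from separate cultures, so the p-values measure the spread between these libraries, which may be technical.

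Heme oxygenase opens the porphyrin ring of heme, which releases iron and carbon monoxide and leaves biliverdin, and biliverdin reductase turns biliverdin into bilirubin. The iron that a cell frees or takes up through the transferrin receptor is stored inside ferritin, a shell of heavy and light chains, or leaves through ferroportin. A pair of iron regulatory proteins, one of them encoded by Aco1 and the other by Ireb2, bind a hairpin called the iron-responsive element when iron is low: in the leader of a ferritin or ferroportin mRNA the bound hairpin holds back translation, and in the tail of the transferrin receptor mRNA it protects the message from decay. In brain endothelium the receptor and the exporter help set how much iron crosses from blood to brain.

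Because this hairpin acts on translation in a leader and on message decay in a tail, the matches to it are shown before the levels. The GENCODE M39 canonical transcripts (build GRCm39) of 21751 genes were searched on the sense strand for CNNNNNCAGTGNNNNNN, with the requirement that the 5 bases before the loop pair with the 5 bases after it, G·T pairs allowed. A match was present in 289 genes (1.33%), and in the 5′ UTR of 24 (0.11%), the coding part of 0.648% and the 3′ UTR of 125 (0.575%). Of the 10 genes, 4 had a match, all in the untranslated part where the element is known. The matches are given 5′ to 3′ with the 6 loop bases in capitals.
Fth1, 5′ UTR, exon 1 of 4, chr19:9960096-9960124, plus strand: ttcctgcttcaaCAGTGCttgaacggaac
Ftl1, 5′ UTR, exon 1 of 4, chr7:45109203-45109231, minus strand: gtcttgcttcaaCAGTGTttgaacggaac
Slc40a1, 5′ UTR, exon 1 of 8, chr1:45964625-45964653, minus strand: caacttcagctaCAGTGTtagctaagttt
Tfrc, 3′ UTR, exon 19 of 19, chr16:32450037-32450065, plus strand: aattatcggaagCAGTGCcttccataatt
Tfrc, 3′ UTR, exon 19 of 19, chr16:32450416-32450444, plus strand: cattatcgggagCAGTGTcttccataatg
Tfrc, 3′ UTR, exon 19 of 19, chr16:32450481-32450509, plus strand: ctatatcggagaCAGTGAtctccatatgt
Tfrc, 3′ UTR, exon 19 of 19, chr16:32450528-32450556, plus strand: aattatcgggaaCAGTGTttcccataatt
The single match of Fth1, Ftl1 and Slc40a1 opened at base -132, -170 and -224 counted from the start codon, and those of Tfrc between 889 and 1380 bases after the stop codon, counted at the unpaired C. Hmox1, Hmox2, Blvra, Blvrb, Ireb2 and Aco1 held no match, which says only that these letters are not in these transcripts.

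**Figure D1:**
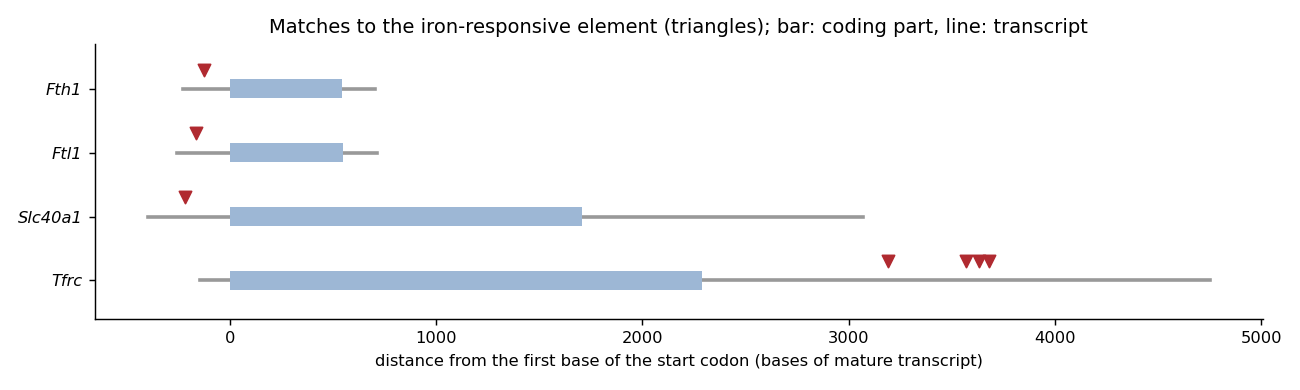
Positions of the matches to the iron-responsive element in 4 mouse transcripts, with the x axis in bases of mature transcript from the first base of the start codon, grey lines for the transcript, blue bars for the coding part and red triangles for the middle of each printed stretch. Fth1, Ftl1 and Slc40a1 have 1 triangle each before the coding part, and Tfrc has 4 after it.

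The libraries held 18289776 to 19509225 fragments on genes in Ctrl, 16797492 to 18603707 in Ep1 and 16240688 to 18575984 in Ep2. Levels are FPKM, that is fragments per kilobase of gene scaled to the library total, and differences were tested on log2(FPKM + 1) with limma over the 11727 genes that reached 1 FPKM in 3 or more libraries, with Benjamini-Hochberg adjustment over all of them. A gene was called at an adjusted p below 0.05. Against its label, the line held little of the endothelial markers: 3 of 12 (Eng, Egfl7 and Ly6c1) reached 1 FPKM in at least 3 libraries, Emcn had 0 fragments in all of them, and the summed level was 62.7 to 66.2 FPKM for Ctrl, 55.1 to 61.7 for Ep1 and 55.6 to 84.6 for Ep2. Most of this sum was Ly6c1 (means 59.4, 52.6 and 68.9 FPKM). The epithelial list of 5 genes, of which 4 reached that level, summed to 1029 to 1081 FPKM for Ctrl, 937 to 1041 for Ep1 and 1155 to 1372 for Ep2, and Krt19 was called higher in Ep2 than in Ctrl (log2 fold change 0.70). The macrophage list of 8 genes summed to 33.4 to 36.7, 30.1 to 35.1 and 87.5 to 102 FPKM, nearly all of it Cd68 (means 23.8, 22.1 and 83.6 FPKM) and Cd14 (10.9, 9.78 and 10.2 FPKM), while Itgam had 0 fragments and Ptprc and Adgre1 had 4 and 2 fragments over the 9 libraries. Of the pericyte, astrocyte and erythroid lists no gene reached 1 FPKM in 3 libraries, and the globin genes Hbb-bs and Hbb-bt had 0 fragments. The part of the keratin and Cd68 differences in the Ep2 results was not tested.

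At 10 J/cm2, 3 of the 9 tested genes were called higher than in Ctrl (Hmox1, Ftl1 and Ireb2; 6.32% of all tested genes were called higher), and 0 were called lower (4.97% of all tested genes), with 1 lower at an unadjusted p below 0.05 and 0 lower by voom. The count of 3 in Ep1 was 1, Hmox1, with no filter and without Ctrl replicate 1 or 2 or Ep1 replicate 1 or 3. At 20 J/cm2 the same 3 were called higher (23.9% of all tested genes) and Tfrc and Aco1 lower (29.3%). Between the doses, Ftl1, Ireb2 and Blvrb were called higher in Ep2 than in Ep1 (18.8%), and Tfrc lower (25.2%). With a further requirement of an absolute log2 fold change above 0.6, 1 gene was called in Ep1 (0.793% of all tested genes) and 2 in Ep2 (9.17%), and 0 were called between the doses (5.9%), where Tfrc came nearest at -0.59. The share of all calls between the doses that were higher was 42.8%, and 55.5% when each library was centred on its median. In counts of libraries alone, Ep1 lay wholly above Ctrl for 4 of the 9 genes and wholly below for 4 (41.3% of all tested genes did not overlap), Ep2 wholly above Ctrl for 3 and below for 4 (59.7%), and Ep2 wholly above Ep1 for 3 and below for 1 (54.4%). The median log2 fold change of the 9 genes was 0.07, 0.10 and 0.03 in these comparisons, beside -0.01, -0.03 and -0.01 over all tested genes. Both comparisons with Ctrl share the Ctrl libraries. As the libraries are bulk samples, fewer cells with an mRNA and less of it per cell cannot be told apart.

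**Figure D2:**
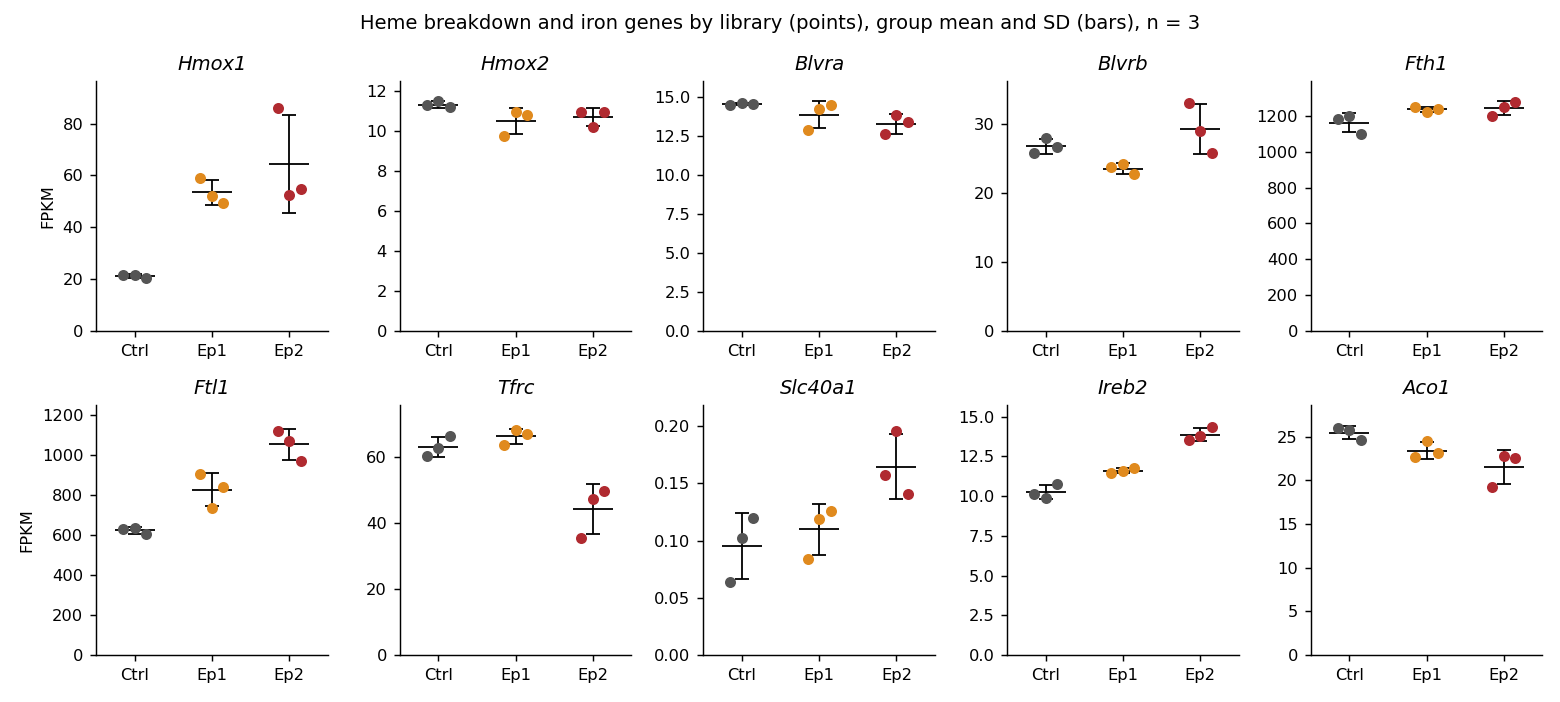
FPKM of the 10 genes in Ctrl, Ep1 and Ep2, with 1 point per library, a long bar at the group mean and whiskers of 1 SD (n = 3), each y axis starting at 0. Hmox1 and Ftl1 lie above Ctrl in all Ep1 and Ep2 libraries, Tfrc lies below Ctrl in all Ep2 libraries, and Slc40a1 stays under 0.2 FPKM.

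Hmox1 (ENSMUSG00000005413, chromosome 8, 75093621 to 75100589, plus strand, GRCm38 as for all gene positions here), the inducible heme oxygenase, showed the largest change against Ctrl of the 9 tested genes at both doses. Its level was 21.6, 21.8 and 20.4 FPKM in the Ctrl libraries, 59.0, 51.9 and 49.4 in Ep1, and 86.0, 52.4 and 54.7 in Ep2. Every treated library lay above every Ctrl library, and Ep2 replicate 1 stood apart from the other 2 Ep2 libraries, which lay within the range of Ep1. The means were 21.3 ± 0.77 FPKM for Ctrl, 53.5 ± 4.97 for Ep1 and 64.4 ± 18.7 for Ep2 (SD, n = 3), a ratio of means to Ctrl of 2.51 and 3.03. The log2 fold change was 1.29 (SE 0.17, adjusted p = 0.00823) in Ep1 and 1.52 (SE 0.17, adjusted p = 0.00018) in Ep2. Between the doses it was 0.23, with a 95% interval of -0.16 to 0.63 (adjusted p = 0.309), and 0.01 without Ep2 replicate 1, where the log2 fold change of Ep2 against Ctrl was 1.29. The interval leaves room for a rise or a small fall of Hmox1 with the higher dose.

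Hmox2 (ENSMUSG00000004070, chromosome 16, 4726361 to 4766742), the constitutive heme oxygenase, was not called in any comparison. Its level was 11.3, 11.5 and 11.2 FPKM in Ctrl, 9.75, 10.9 and 10.8 in Ep1, and 10.96, 10.2 and 10.97 in Ep2. The treated libraries all lay below Ctrl, by little: the log2 fold change was -0.10 (adjusted p = 0.241) in Ep1 and -0.07 (adjusted p = 0.271) in Ep2. Hmox1 therefore made up 64.6% to 65.7% of the summed FPKM of both heme oxygenases in Ctrl, 82.1% to 85.8% in Ep1 and 83.3% to 88.7% in Ep2.

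Blvra (ENSMUSG00000001999, chromosome 2, 127070665 to 127097084), biliverdin reductase A, was not called in any comparison. Its level was 14.5, 14.6 and 14.5 FPKM in Ctrl, 12.8, 14.2 and 14.4 in Ep1, and 12.6, 13.8 and 13.4 in Ep2. All treated libraries lay just below Ctrl, with log2 fold changes of -0.07 (adjusted p = 0.443) and -0.12 (adjusted p = 0.0804, and 0.0496 without Ep1 replicate 1). Blvrb (ENSMUSG00000040466, chromosome 7, 27447978 to 27466144), biliverdin reductase B, also known as flavin reductase, was 25.7, 27.9 and 26.6 FPKM in Ctrl, 23.7, 24.2 and 22.7 in Ep1, and 32.9, 29.0 and 25.7 in Ep2. Ep1 lay wholly below Ctrl and wholly below Ep2, and Ep2 overlapped Ctrl. It was called between the doses, with Ep2 higher by 0.30 on the log2 scale (SE 0.08, adjusted p = 0.0125), and not against Ctrl, with -0.18 (adjusted p = 0.162) in Ep1 and 0.12 (adjusted p = 0.23) in Ep2. The Ep1 value was called without Ep2 replicate 1 (adjusted p = 0.0475) and in a fit of Ep1 and Ctrl alone (0.0313), and the Ep2 value with the length trend removed (0.0399) and without Ep2 replicate 3 (0.026).

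Ferritin mRNA was the most abundant of the group, and its chains differed in their change. Fth1 (ENSMUSG00000024661, chromosome 19, 9982703 to 9985092), the heavy chain with the ferroxidase site, was 1180.4, 1199.9 and 1099 FPKM in Ctrl, 1249, 1221 and 1235 in Ep1, and 1199.7, 1246 and 1278 in Ep2. Ep1 lay wholly above Ctrl and Ep2 overlapped it by 1 library, with log2 fold changes of 0.09 (adjusted p = 0.192) and 0.10 (95% interval 0.0015 to 0.19, adjusted p = 0.0809). The Ep2 value was called with median centring (adjusted p = 0.0185), with voom (0.0218), with the length trend removed (0.0258) and without Ep2 replicate 1 (0.0405).

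Ftl1 (ENSMUSG00000050708, chromosome 7, 45457944 to 45459884, minus strand), the light chain that helps the iron core form, was 627, 635 and 603 FPKM in Ctrl, 901, 734 and 840 in Ep1, and 1120.0, 1069 and 966 in Ep2. The groups did not overlap and were ordered Ctrl, Ep1, Ep2. The means were 622 ± 16.8, 825 ± 84.4 and 1051 ± 78.5 FPKM (SD, n = 3). The log2 fold change was 0.40 (SE 0.08, adjusted p = 0.0159) in Ep1, 0.75 (SE 0.08, adjusted p = 5.2e-05) in Ep2 and 0.35 (adjusted p = 0.00523) between the doses. The call in Ep1 was lost in 5 of 17 alternatives, with no filter (adjusted p = 0.0556) and without Ctrl replicate 1 (0.0532), Ctrl replicate 2 (0.0608), Ep1 replicate 1 (0.0548) or Ep1 replicate 3 (0.0654), whereas the other Ftl1 calls were made in all 17. The summed FPKM of both chains was 1702 to 1835 in Ctrl, 1955 to 2150 in Ep1 and 2244 to 2320 in Ep2. Both chains have processed copies elsewhere in the genome, and reads may have been split between them: Ftl1-ps1 held 12.9 to 22.7 FPKM, or 1.74% to 3.35% of the fragments of Ftl1, and Fth-ps2 at most 0.311 FPKM.

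Tfrc (ENSMUSG00000022797, chromosome 16, 32608920 to 32632794), the transferrin receptor that brings iron into the cell, was lower in Ep2. Its level was 60.4, 62.8 and 66.4 FPKM in Ctrl, 63.9, 68.4 and 67.0 in Ep1, and 35.6, 47.3 and 49.9 in Ep2. Ep1 overlapped Ctrl, and every Ep2 library lay below every other library, Ep2 replicate 1 being the lowest. The means were 63.2 ± 3.02, 66.4 ± 2.28 and 44.3 ± 7.63 FPKM (SD, n = 3), a ratio of means of 0.701 for Ep2 to Ctrl. The log2 fold change was 0.07 in Ep1 (95% interval -0.17 to 0.32, adjusted p = 0.703), -0.52 in Ep2 (SE 0.11, adjusted p = 0.00342) and -0.59 between the doses (SE 0.11, adjusted p = 0.00234). Without Ep2 replicate 1 the change of Ep2 against Ctrl was -0.37 (adjusted p = 0.000396).

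Slc40a1 (ENSMUSG00000025993, chromosome 1, 45908068 to 45926523, minus strand), ferroportin, the only known iron exporter of mammalian cells, was barely detected. It had 11, 18 and 20 fragments in Ctrl, 14, 18 and 21 in Ep1, and 27, 33 and 21 in Ep2, that is 0.0634, 0.102 and 0.12 FPKM, 0.0842, 0.119 and 0.126 FPKM, and 0.157, 0.196 and 0.141 FPKM. Per length and depth every Ep2 library lay above every other library. The gene was under the filter of the main test. In a limma fit with no filter the log2 fold change of Ep2 against Ctrl was 0.09 (adjusted p = 0.236). That fit adds 1 to each FPKM, which holds any change of a gene this low near 0. With voom on the fragments the log2 fold change was 0.84 (SE 0.33, adjusted p = 0.0383), and the ratio of means of Ep2 to Ctrl was 1.73. The call thus depends on the method, and it rests on 11 to 33 fragments per library.

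The mRNAs of the iron regulatory proteins moved in opposite directions at the higher dose. Ireb2 (ENSMUSG00000032293, chromosome 9, 54863789 to 54912530), which encodes IRP2, was 10.2, 9.89 and 10.7 FPKM in Ctrl, 11.5, 11.6 and 11.8 in Ep1, and 13.5, 13.8 and 14.4 in Ep2. The groups did not overlap and followed the light dose. The log2 fold change was 0.16 (SE 0.05, adjusted p = 0.0487) in Ep1, 0.40 (SE 0.05, adjusted p = 8.76e-05) in Ep2 and 0.24 (adjusted p = 0.00239) between the doses. The Ep1 call was made in 6 of 17 alternatives, with adjusted p from 0.0319 to 0.176, and the others in all 17. Aco1 (ENSMUSG00000028405, chromosome 4, 40143081 to 40198338), which encodes IRP1, also the aconitase of the cytosol, was 25.95, 25.8 and 24.6 FPKM in Ctrl, 22.6, 24.5 and 23.1 in Ep1, and 19.3, 22.8 and 22.5 in Ep2. All treated libraries lay below Ctrl, and the call was made in Ep2 (log2 fold change -0.23, SE 0.06, adjusted p = 0.0125) and not in Ep1 (-0.12, adjusted p = 0.263) or between the doses (-0.12, adjusted p = 0.165).

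**Figure D3:**
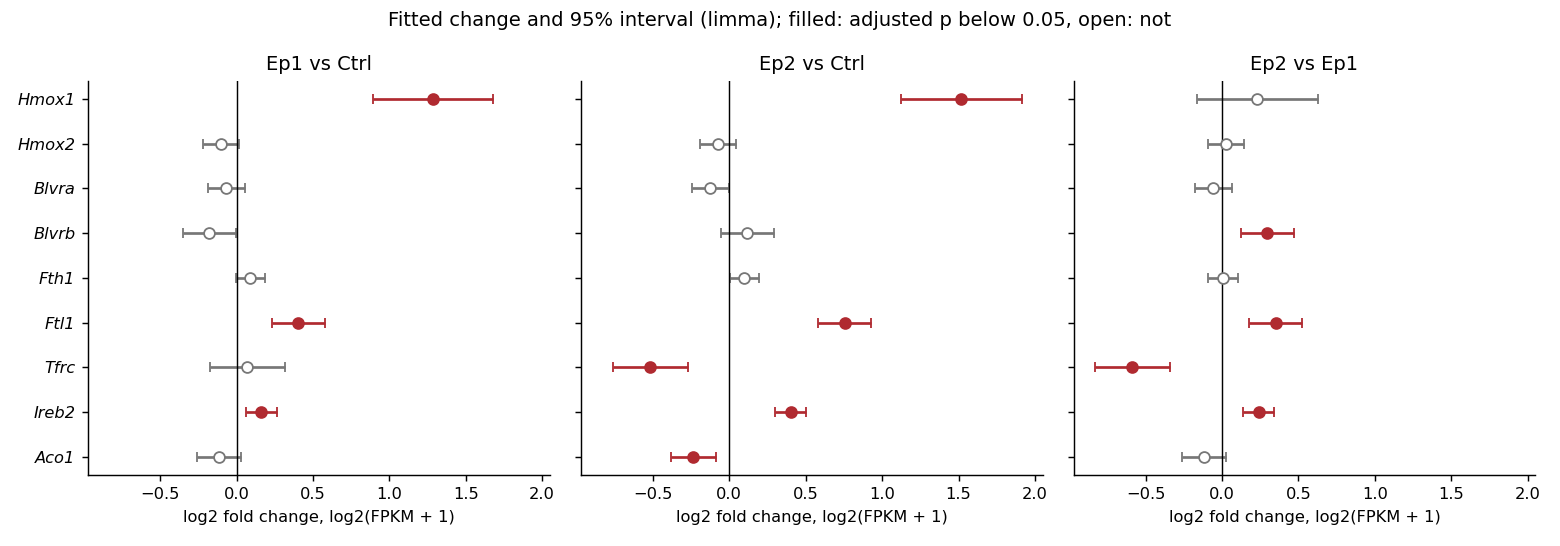
Log2 fold change on the log2(FPKM + 1) scale (x axis) of the 9 tested genes in the 3 comparisons, with 95% intervals from limma and filled red points where the adjusted p was below 0.05. Hmox1 lies far right against Ctrl at both doses and spans 0 between the doses, and Tfrc lies left of 0 in both comparisons that hold Ep2.

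Per length, the order of the genes in Ctrl was Fth1, Ftl1, Tfrc, Blvrb, Aco1, Hmox1, Blvra, Hmox2, Ireb2 and Slc40a1, and of these neighbours only Blvrb and Aco1 overlapped. In Ep1 Hmox1 stood in place 4, below Tfrc, and in Ep2 in place 3, above Tfrc. Ireb2 came to stand above Hmox2 in Ep1, and in Ep2 above Blvra, with which it overlapped.

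A ratio of 2 genes within 1 library does not depend on the scaling of the libraries. For 5 such ratios the 3 groups were compared with an exact permutation test over all 1680 assignments of the libraries, adjusted over the 5. The Fth1 to Ftl1 ratio was 1.88, 1.89 and 1.82 in Ctrl, 1.39, 1.66 and 1.47 in Ep1, and 1.07, 1.17 and 1.32 in Ep2. Its groups did not overlap and fell from 1.86 ± 0.036 to 1.51 ± 0.14 and 1.19 ± 0.13 (SD, n = 3, exact permutation p = 0.00357, the smallest this design can give, adjusted p = 0.00893). The Ireb2 to Aco1 ratio was 0.391, 0.384 and 0.437 in Ctrl, 0.507, 0.472 and 0.51 in Ep1, and 0.701, 0.605 and 0.639 in Ep2, which again did not overlap (exact permutation p = 0.00357, adjusted p = 0.00893). The Hmox1 to Hmox2 ratio was 1.82 to 1.91 in Ctrl, 4.57 to 6.05 in Ep1 and 4.99 to 7.85 in Ep2 (exact permutation adjusted p = 0.0223). Both treated groups lay apart from Ctrl and overlapped each other. The Tfrc to Fth1 ratio, iron uptake against storage, was 0.0512 to 0.0604 in Ctrl, 0.0512 to 0.056 in Ep1 and 0.0297 to 0.0391 in Ep2, with only Ep2 apart (exact permutation adjusted p = 0.0286). The Blvra to Blvrb ratio was 0.523 to 0.563, 0.543 to 0.637 and 0.382 to 0.52 (exact permutation adjusted p = 0.0223), and this call was lost in most fits without 1 library, with an adjusted p of 0.0786 without Ep2 replicate 1.

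**Figure D4:**
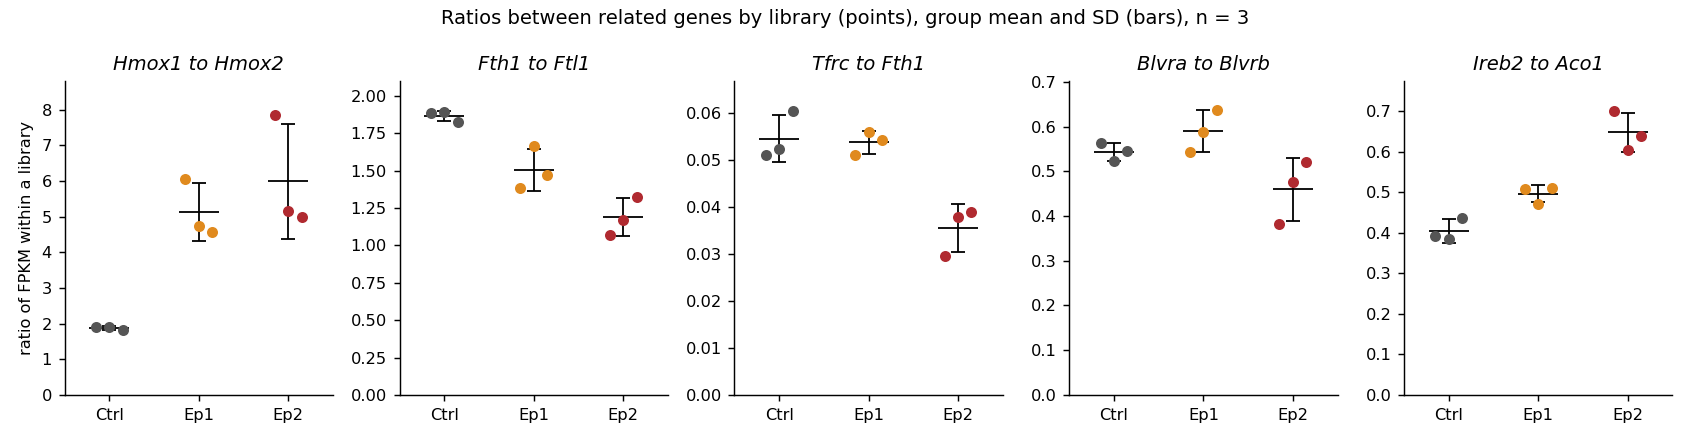
Ratio of the FPKM of 2 related genes within each library (y axis, from 0) in Ctrl, Ep1 and Ep2, with points for libraries, a long bar for the group mean and whiskers of 1 SD (n = 3). The Fth1 to Ftl1 ratio steps down and the Ireb2 to Aco1 ratio steps up with no overlap between groups, while the Tfrc to Fth1 ratio is apart in Ep2 alone.

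A list of 46 further iron and heme genes was read in the same fit, of which 36 were tested. Of these, 5 were called higher and 4 lower in Ep1 than in Ctrl, beside 6.32% and 4.97% of all tested genes, and 11 higher and 14 lower in Ep2, beside 23.9% and 29.3%. Between the doses 6 were called higher and 11 lower, beside 18.8% and 25.2%. This balance turned to 10 higher and 7 lower with median centring, to 9 and 7 with voom, and to 9 and 8 with the length trend removed. Their median log2 fold change was -0.0035, -0.0046 and -0.05, beside -0.01, -0.03 and -0.01 over all tested genes. The count in Ep1 was 5 with no filter, 14 in a fit of the compared groups alone and 4 to 14 when 1 library was left out, being 4 without Ctrl replicate 1, Ctrl replicate 2 or Ep1 replicate 3, 5 without Ep1 replicate 1 and 14 without Ep2 replicate 1. The count between the doses was 11 without Ep1 replicate 2. The 11 called higher in Ep2 than in Ctrl became 7 in a fit of the compared groups alone and without Ctrl replicate 1 or Ep2 replicate 2.

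The regulators of transcription that act on Hmox1 and on the ferritin genes were the sublist with the most rises in Ep1. These are Bach1, the heme-sensing repressor, the activator Nfe2l2 (NRF2) with its inhibitor Keap1, and the small Maf partners Maff, Mafg and Mafk: 4 of 6 were called higher in Ep1 (6.32% of all tested genes) and 5 of 6 in Ep2 (23.9%), and 0 lower in either, at an unadjusted p below 0.05 and by voom as well. Bach1 had 10.9 ± 0.64 FPKM for Ctrl, 15.6 ± 0.83 for Ep1 and 19.7 ± 0.48 for Ep2 (SD, n = 3), with log2 fold changes of 0.47 (adjusted p = 0.00521) and 0.79 (adjusted p = 7.0e-06). Maff was 24.9 ± 1.52, 37.8 ± 3.13 and 38.4 ± 3.34 FPKM and was called at both doses (log2 fold change 0.58 and 0.60), Mafk rose by 0.39 in Ep1 and Mafg by 0.17 in Ep1 and 0.42 in Ep2. The Mafg call in Ep1 was lost with no filter (adjusted p = 0.0578) and without any 1 Ctrl or Ep1 library. Nfe2l2 itself was 48.8 ± 1.21, 55.6 ± 2.25 and 58.7 ± 8.15 FPKM and was called in Ep2 only (adjusted p = 0.0319), a difference between the doses of 0.07 (adjusted p = 0.546). Its Ep2 libraries spread from 50.4 to 66.7 FPKM, beside 47.5 to 49.7 in Ctrl. The Nfe2l2 call was followed through the alternatives only as part of the list counts.

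Alas1, the rate-limiting enzyme of heme synthesis outside red cells, had the largest fall of the 36 genes. Ctrl had 9.86 ± 0.27 FPKM, Ep1 3.103 ± 0.095 and Ep2 5.84 ± 1.22 (SD, n = 3). Against Ctrl it differed by -1.40 in Ep1 (adjusted p = 0.00121) and by -0.68 in Ep2 (adjusted p = 0.000526) on the log2 scale, and it was higher in Ep2 than in Ep1 by 0.72 (adjusted p = 0.000561). The lower dose thus went with the lower level. Fech, which inserts iron into the ring, had a log2 fold change of 0.06 in Ep1 (adjusted p = 0.491) and was called higher by 0.18 in Ep2 (adjusted p = 0.0278). The Fech call was followed through the alternatives only as part of the list counts.

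Of 11 genes of iron-sulfur cluster assembly and carriage, 0 were called higher and 7 lower in Ep2 than in Ctrl (23.9% and 29.3% of all tested genes), with the same counts at an unadjusted p below 0.05 and by voom, and a median log2 fold change of -0.28. Glrx5, a mitochondrial glutaredoxin that passes clusters on, was 22.3 ± 0.95 and 22.3 ± 0.45 FPKM in Ctrl and Ep1 and 14.5 ± 1.09 in Ep2 (log2 fold change -0.59 against Ctrl, adjusted p = 3.75e-05). In Ep1 Hscb, a co-chaperone of cluster transfer, was the 1 gene called lower (-0.35, adjusted p = 0.0179), a call lost with no filter (0.0593) and without Ctrl replicate 1 or 2 or Ep1 replicate 1 or 3.

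Iron uptake and mitochondrial import held 6 tested genes beside Tfrc, of which 4 were called lower and 0 higher in Ep2 than in Ctrl (29.3% and 23.9% of all tested genes), with 1 higher at an unadjusted p below 0.05 and 1 by voom. Slc11a2, the divalent metal transporter DMT1 that moves iron out of the endosome, was 16.4 ± 0.68, 14.4 ± 0.26 and 10.6 ± 0.82 FPKM (SD, n = 3), with a log2 fold change of -0.58 in Ep2 (adjusted p = 4.44e-05). Steap3, the endosomal reductase that prepares iron for it, was 4.33 ± 0.30, 3.52 ± 0.35 and 2.49 ± 0.16 FPKM, with -0.61 in Ep2 (adjusted p = 0.000136). Both were also lower in Ep2 than in Ep1 (-0.41 and -0.37), and neither was called in Ep1 (-0.17, adjusted p = 0.085, and -0.24, adjusted p = 0.0658). Tfrc, Steap3 and Slc11a2 act one after the other on the way of transferrin iron through the endosome, and all were called lower in both comparisons that hold Ep2.

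Among 6 tested genes of heme transport 1 was called higher and 2 lower in Ep1 (6.32% and 4.97% of all tested genes), and 3 higher and 2 lower in Ep2 (23.9% and 29.3%), where 2 of 6 lower is near the share over all genes. The falls in Ep1 were those of Slc46a1, a heme and folate carrier (-0.29, adjusted p = 0.0367, lost with no filter at 0.105 and in 6 of the 9 fits without 1 library), and of Lrp1, the receptor for hemopexin-bound heme (-0.28, adjusted p = 0.0131, lost without Ctrl replicate 1 or 2 or Ep1 replicate 3). Of the 4 tested genes of storage and release, 1 was called higher in Ep2, near the 23.9% over all tested genes. Fbxl5, the iron-sensing ubiquitin ligase subunit that marks IRP2 for breakdown, was 5.91 ± 0.020, 6.00 ± 0.20 and 7.96 ± 0.19 FPKM (SD, n = 3) and was called higher in Ep2 than in Ctrl (0.37, adjusted p = 0.000118) and than in Ep1 (0.36, adjusted p = 0.000241). Its rise at the higher dose went beside that of Ireb2, which encodes its target. Hamp, the gene of hepcidin, had 2 fragments over the 9 libraries, and Heph and Ftmt had 0.

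**Figure D5:**
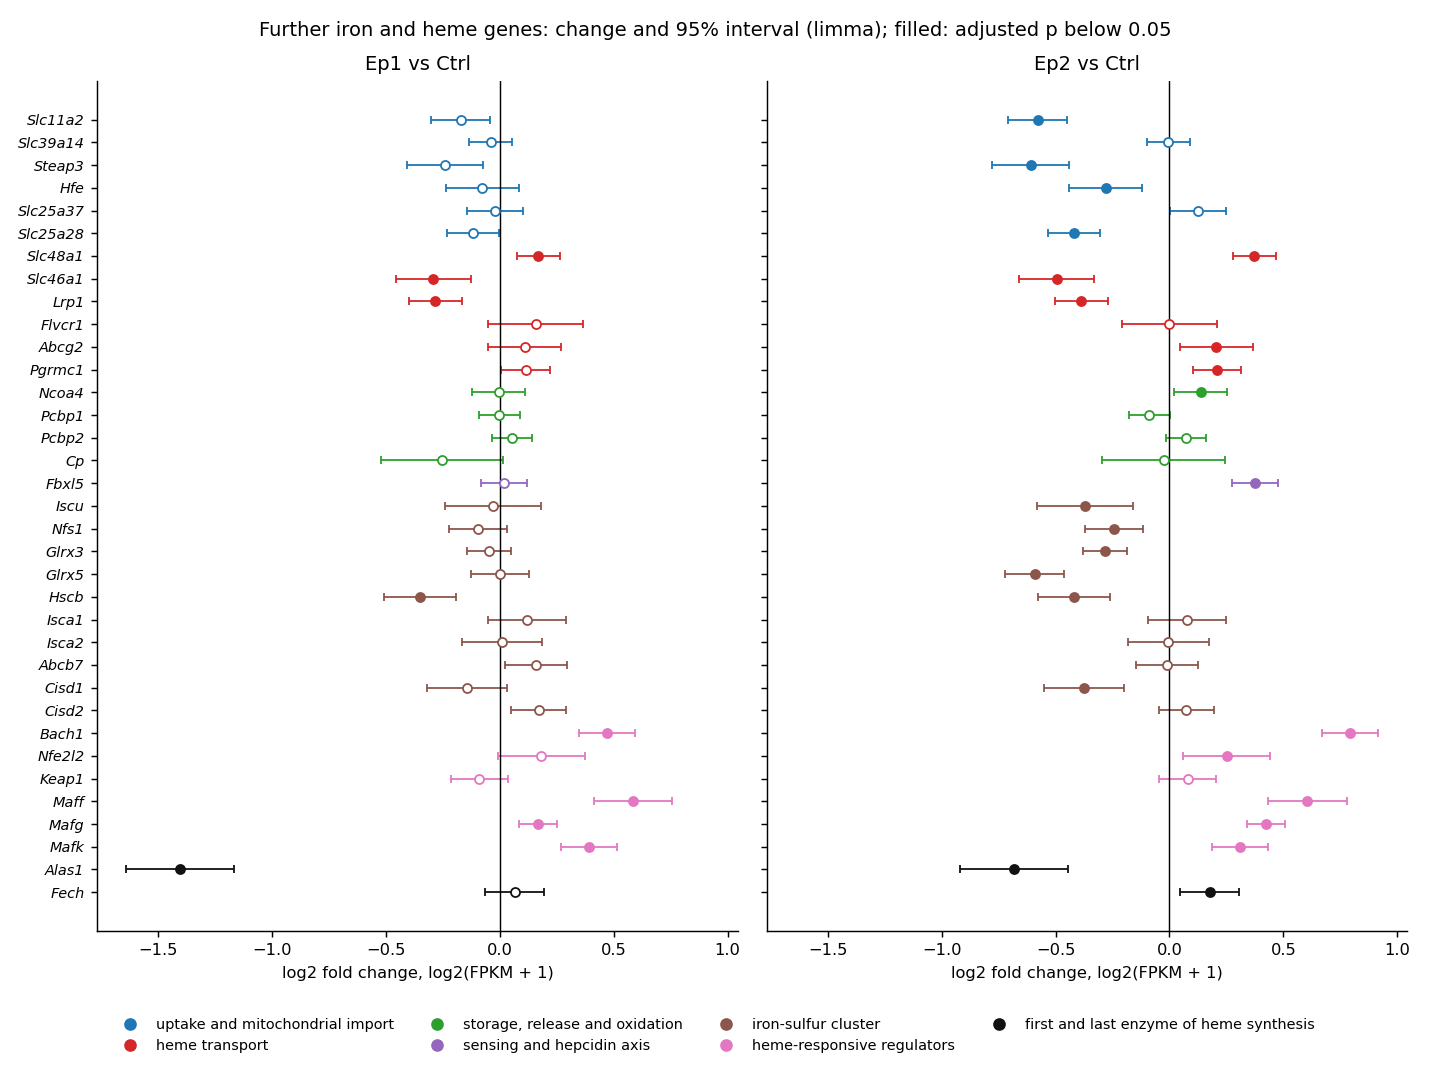
Log2 fold change on the log2(FPKM + 1) scale (x axis) of the tested further iron and heme genes (1 of the 36 is not drawn) against Ctrl in Ep1 and Ep2, coloured by sublist, with 95% intervals from limma and filled points where the adjusted p was below 0.05. Alas1 is the farthest left in Ep1 at -1.40, and in Ep2 the filled points of the iron-sulfur and uptake sublists all lie left of 0.

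Of 9 mRNAs known to carry an iron-responsive element, 6 were tested, and 1 was called higher (Ftl1) and 2 lower (Tfrc and Slc11a2) in Ep2 than in Ctrl, near the 23.9% and 29.3% of all tested genes, so these counts set the group apart in neither direction. With the element in the leader, the log2 fold changes in Ep2 were 0.75 for Ftl1, 0.10 for Fth1 and 0.22 for Epas1 (adjusted p = 0.097). Those with it in the tail had -0.52 for Tfrc and -0.58 for Slc11a2. The canonical transcripts of Slc11a2 and Epas1 held no match to the letters searched.

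Over the 9 libraries, the tested genes with a course most like that of Hmox1 on the log2(FPKM + 1) scale were Gclm (Pearson r = 0.984), a subunit of the enzyme that starts glutathione synthesis, Wwc2 (0.98) and Maff (0.98). Gclm was at a mean of 14.5, 22.8 and 24.5 FPKM in Ctrl, Ep1 and Ep2. Those most like Tfrc were Ttc13 (0.995), Dkc1 (0.993) and Mtap (0.992), with means for Dkc1, a protein of telomerase and of RNA pseudouridylation, of 43.0, 45.7 and 29.2 FPKM. These correlations describe 9 libraries in 3 groups that share their treatment, and the genes were picked for them.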

How the data were processed

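Paired-end RNA sequencing of 9 libraries of B.END3 cells (3 each of Ctrl, Ep1 and Ep2, grouped by library title) was used. The authors mapped the reads to the mouse genome and deposited FPKM, in which fragments are divided by gene length and library total. The submitters' processing notes name Bowtie 0.12.2 and mm8, the study's methods name GRCm39, and the listed positions are those of GRCm38. The counting tool and annotation are not given in the sources used here. The notes and methods call the line rat, and the organism field mouse. The 9 single-library tables equal the joint table. FPKM times gene length gave whole fragments to within 0.05 for 100.0% of values, from which depth was taken. A count of 0 allows up to 3 fragments, for counting error only.

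All libraries entered 1 limma model of log2(FPKM + 1) (variance trend, robust estimation, no covariate) for genes reaching 1 FPKM in 3 or more libraries. The pseudocount of 1 understates the fold change of low genes. Ratios were compared with exact permutation tests. Alternatives were median centring, no filter, 1 FPKM in all libraries, a pseudocount of 0.1, a replicate block, only the groups compared, voom on recovered fragments (at least 10 in at least 3 libraries), removal of the trend with gene length, and each library left out. The 10 genes, the further list and the tests were chosen with earlier results of these data known. Named are the 10 genes, up to 4 called genes of the further list with the largest rise and fall in each comparison, and the 3 genes with the course most like Hmox1 and Tfrc. Nfe2l2, Fech, Hamp, Heph, Ftmt, Epas1 and the cell type markers were named outside this rule, after their values were seen. Some genes of these lists count in the totals and are not reported here by name. Hjv was looked up under its older symbol Hfe2.

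The fits were tested on simulated data. Software was R 4.3.3 with limma 3.58.1, and Python 3.11.15 with scipy 1.17.1, pandas 2.3.3, numpy 2.4.6 and matplotlib 3.10.9.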

Additional observations from a re-analysis of the deposited data

How the results depend on the processing

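All calls of the 10 genes in Ep2 against Ctrl and between the doses were made in each of the 17 alternatives, as was that of Hmox1 in Ep1. The number of the 10 genes called in Ep1 was 3, 1 with no filter and 1 to 4 when 1 library was left out. For the further genes it was 9 in Ep1, 5 with no filter, 14 in the fit of only the compared groups and 4 to 14 when 1 library was left out, and 17 between the doses, with 11 to 18. With a replicate block the exact permutation test over the 3 groups gave an adjusted p of 0.0833 for the Tfrc to Fth1 ratio and 0.0694 for the Blvra to Blvrb ratio, whose log2 differences of Ep2 from Ctrl stayed at -0.63 and -0.25 and were not tested alone, and the Ep1 calls of Ireb2 (0.0556) and Slc46a1 (0.0607) were lost. The block changed no other call of the 10 genes, nor of the further genes in the comparisons where the rule named them. Of the further genes, 10 were called higher in Ep2 than in Ctrl with the block, beside 11 in the main fit. Same-numbered libraries had correlations of deviations of -0.0565 to 0.0744, and differently numbered ones of -0.108 to 0.153. The deviations thus showed no pairing by number, which does not tell whether same-numbered libraries were handled together. The Blvra to Blvrb difference was -0.35 to -0.13 when 1 library was left out. Changes that were not called and turned sign were those of Hmox2 in Ep2 (0.021) and of Blvra between the doses (0.0044) with the length trend removed, and, when 1 library was left out, those between the doses of Hmox2 (-0.021 to 0.059, below 0 without Ep1 replicate 1) and of Fth1 (-0.014 to 0.031, below 0 without Ep1 replicate 2 or Ep2 replicate 3). Of the other single-gene values, 814 kept direction and call, 39 lost the call and 9 gained it. The cause was not tested.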
